A study of Mus musculus with 8 samples.

Results

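Hepa 1-6 is a mouse hepatoma cell line that still expresses part of the hepatocyte programme. The comparison described here set its polyadenylated RNA after knock-down (KD) of Kap1 against control cells, over all genes of the deposited count table. It used 4 of the 8 samples of the study, all of the same cell line and differing in the plasmid received. The 2 Kap1 KD samples carried an shRNA against KAP1. The 2 control samples carried a control shRNA plasmid according to the labels, which the study's methods describe as the empty pLKO vector. One label field speaks of transfection, while the protocol gives transduction 5 days before collection. A single shRNA and a bulk culture were used. No label or method states whether replicates were separate cultures, so the spread between these samples may be technical. The p-values measure only that spread, which edgeR here pooled over genes. Samples were paired by replicate number, as 1 sample of each group carried the number 2 and the other none. The table held 21915 genes, of which 14142 had enough counts to be tested.

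KAP1, encoded by Trim28, is a co-repressor of the TIF1 family. KRAB zinc finger proteins bind DNA by sequence and recruit it, and it in turn brings the histone methyltransferase SETDB1, HP1 proteins and the NuRD complex, which is best known to keep transposable elements silent. KAP1 is also found at the promoters of active genes, and the comparison addressed how transcript levels in these cells differ once KAP1 is depleted.

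The 4 libraries held between 41566888 and 53605115 counts. Values are given as counts or as CPM, which are counts scaled to a common library size with TMM factors, and changes as the log2 ratio of Kap1 KD over control. Hepatocyte-like identity was visible in all 4 samples in Alb, Afp, Hnf4a and Foxa2, whereas Ttr, Apoh and Serpina1a, defining genes of the mature hepatocyte, were almost absent, with at most 11 counts for Ttr. Ptprc, which defines leukocytes, had at most 8 counts and Pecam1, which defines endothelium, at most 13, although single members of those lists were higher, such as Cd68 with up to 347 counts and Egfl7 with up to 341. Of 10 cholangiocyte markers 7 were tested, and their summed level was 307 and 295 CPM in control against 247 and 233 in Kap1 KD, with Spp1, Krt7 and Sox9 among those present and Cftr at 4 counts or fewer. Dcn, a fibroblast and stellate cell gene, was abundant in all 4 samples at 1226.96 to 1699.62 CPM, while Col1a2 and Lum had at most 1 count. Replicates differed more than the groups did. The first principal component held 75.8% of the variance and separated the replicate numbers, and the second, with 17.7%, separated Kap1 KD from control.

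Trim28, the targeted gene, lies on chromosome 7 (mm9, 13609501 to 13616384, plus strand). It had 25400 and 28506 counts in control against 4512 and 3692 in Kap1 KD. Expressed as CPM, the mean was 515 ± 83.7 in control and 92.4 ± 19.08 in Kap1 KD (SD, n = 2). Both knock-down samples lay far below both controls, and the remaining message was lowest in the second. The fitted change was -2.48 ± 0.06 (log2, SE), and -2.11 and -2.86 in the replicate 1 and replicate 2 pairs. The edgeR p-value was too small to be represented, and DESeq2 with the same replicate block gave an adjusted p of 9.09e-09. An exact two-sided permutation test of a single value over 2 against 2 samples cannot go below p = 0.333.

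A gene was called when edgeR with the replicate block gave an adjusted p under 0.05, the fitted change was at least 1.5-fold and both pairs moved the same way. By this rule 262 genes rose, which is 1.85% of those tested, and 338 fell, which is 2.39%. Without any threshold, 32.8% of tested genes were higher in both pairs and 38.2% were lower in both, and these shares are the background for each group of genes below. Most changes were modest, with a median of 1.87-fold among the genes that rose and 1.72-fold among those that fell, and 110 and 94 genes respectively passed 2-fold. Changes were mostly larger in the replicate 2 pair, in 207 of the 262 and 227 of the 338 genes. The calls rest on the pairing. Without the block edgeR called 0 genes in either direction, with 186 genes (1.32%) at an unadjusted p under 0.05, and DESeq2 without the block called 2 higher (Atp2b2 and 9130204K15Rik) and 1 lower (Trim28), with 178 such genes. DESeq2 with the block called 110 and 124. Genes that it gave no adjusted p count as not called by it, here and below. They include 65 of the 175 named genes that edgeR called.

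**Figure D1:**
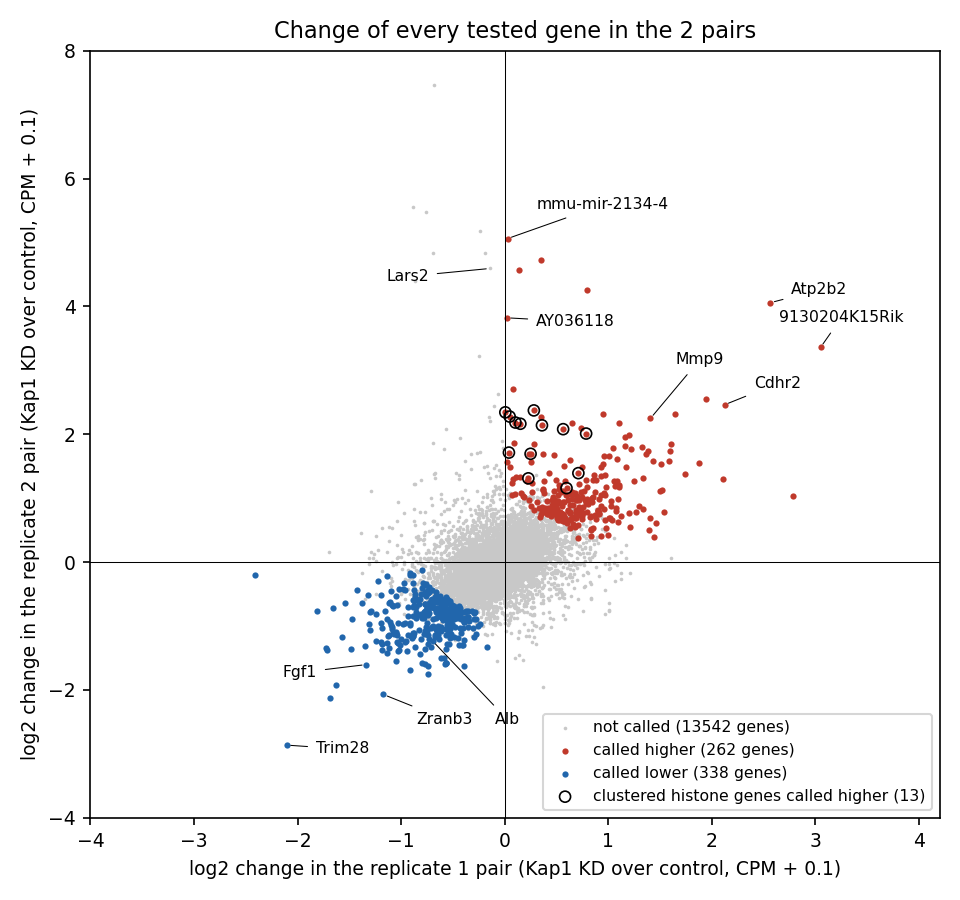
Each point is 1 of the 14142 tested genes, with its log2 change in the replicate 1 pair on the horizontal axis and that of the replicate 2 pair on the vertical axis (CPM plus 0.1). The 262 genes called higher are red and the 338 called lower are blue, and Trim28 is the lowest point at -2.86 in the replicate 2 pair. AY036118 sits high on the vertical axis alone. The 13 histone genes called higher are ringed, and 3 histone genes were at least 1.5-fold higher in each pair.

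Genes of the differentiated liver were called lower more often than the 2.39% of all tested genes, as the following counts describe without a test of the difference. Lists of plasma proteins, complement, lipoproteins, hepatic metabolism, hepatic transporters and liver transcription factors together held 310 tested genes, each counted once. Of these 44 fell (14.2%) and 6 rose (1.94%), and 188 (60.6%) were lower in both pairs. Their median changes were -0.13 and -0.17 in the first and second pair, beside -0.02 and -0.004 for all tested genes, so most members moved little. With DESeq2 and the block, 18 members were called lower and 4 higher. Markers of another liver lineage moved with them, since 6 of 7 tested cholangiocyte markers were lower in both pairs, with medians of -0.32 and -0.41 and Epcam called. The 3 tested erythroid markers, all scarce, had medians of -0.38 and -0.61, and 2 were lower in both pairs. The part of these shifts in the result was not tested. In bulk samples, fewer cells that express these genes and less RNA per cell cannot be told apart.

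Proteins secreted into plasma were represented by 33 tested genes, of which 8 fell and 1 rose, and 4 and 1 were called by DESeq2 with the block. Alb, which encodes serum albumin and is the most abundant of them, had 1579.54 and 1036.17 CPM in control against 975 and 441 in Kap1 KD. Its spread between replicates was wide, but each knock-down sample was below the control of its pair and below both controls. The fitted change was -0.96 ± 0.06 (adjusted p = 8.77e-56). Cp, encoding the copper-carrying ferroxidase ceruloplasmin, went from 11.95 and 20.8 CPM to 5.66 and 9.47, a change of -1.11 ± 0.11 (adjusted p = 4.62e-20). Factors that regulate clotting fell as well. These were Serpind1 (heparin cofactor II) by 1.33, F11 (coagulation factor XI) by 1.25, Proc (protein C) by 1.04 and Serpinf2 (the plasmin inhibitor) by 0.96 on the log2 scale. Sepp1, the selenium carrier, fell by 0.70. Igfbp1, an insulin-like growth factor binding protein, fell by 0.59.

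Complement held 16 tested genes, and 12 were lower in both pairs against 1 higher, with medians of -0.31 and -0.48 in the replicate 1 and 2 pairs. Of the 4 that fell, Cfb (factor B), Cfp (properdin) and Cfi (factor I), activators and regulators of the alternative pathway, had changes of -1.26, -1.03 and -0.77. Cfi was the member called by DESeq2 with the block, and Cfb and Cfp had 72 counts or fewer in every sample. Among 18 genes of lipoproteins and their handling, 12 were lower in both pairs and 3 were called lower. Apob, the structural protein of very-low-density lipoprotein, dropped from 30.1 and 30.3 CPM to 14.6 and 11.5, with a fitted change of -1.21 ± 0.09 (adjusted p = 3.08e-37). The control samples were almost equal and both knock-down samples were well below them. Apoe, carried by remnant particles, had 628 and 1193.61 CPM in control against 421 and 782 in Kap1 KD, so the groups overlapped across replicates although each pair fell, by 0.58 and 0.61. Apoa1, the protein of high-density lipoprotein, had 18 and 21 counts in control against 5 and 8 in Kap1 KD.

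**Figure D2:**
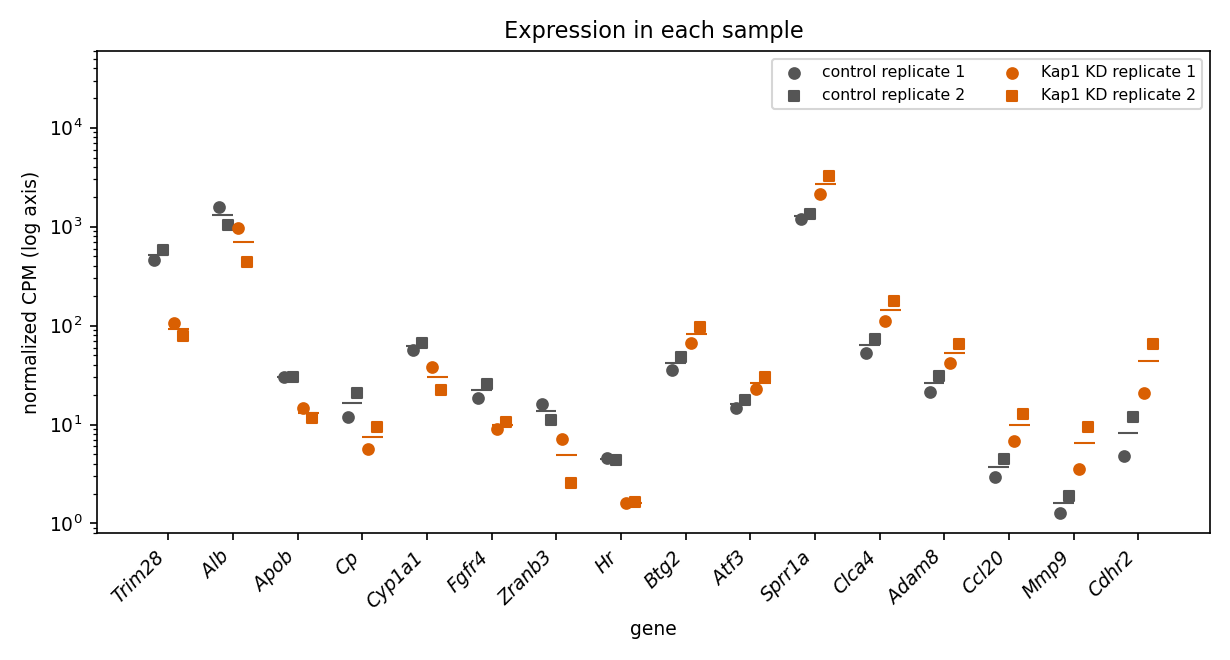
Normalized CPM on a log axis for 16 genes in each of the 4 samples, with control in grey, Kap1 KD in orange, replicate 1 as circles, replicate 2 as squares and a bar at each group mean. Apob, Fgfr4 and Hr show control samples close together above both Kap1 KD samples, while for Cdhr2 and Alb the replicates of a group lie far apart although the groups do not overlap.

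The stretch of DNA just upstream of the annotated start is shown for genes of this liver group whose letters include a motif in capitals (mm9 sequence, 120 bases, written along the gene). In Alb and Igfbp1 the capitals mark GTTAATNAT, a motif found in promoters of liver genes, which lies on the opposite strand in Igfbp1. In Apob they mark TATAAA, the TATA box. Alb is at chr5:90889795-90889914 on the plus strand, Igfbp1 at chr11:7097665-7097784 on the plus strand and Apob at chr12:7984334-7984453 on the plus strand.
Alb: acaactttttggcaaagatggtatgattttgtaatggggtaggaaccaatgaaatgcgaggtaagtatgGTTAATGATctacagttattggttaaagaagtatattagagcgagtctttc
Igfbp1: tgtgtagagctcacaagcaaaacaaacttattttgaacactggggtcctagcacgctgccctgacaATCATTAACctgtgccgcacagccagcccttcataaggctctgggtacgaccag
Apob: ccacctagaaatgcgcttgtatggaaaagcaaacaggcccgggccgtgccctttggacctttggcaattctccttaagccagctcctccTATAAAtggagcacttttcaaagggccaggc

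The letters GTTAATNAT, searched on both strands of these 120 bases, occurred in 6 of 314 protein-coding genes that fell (1.91%), in 1 of 217 that rose (0.461%) and in 34 of all 12408 tested (0.274%). Besides Alb and Igfbp1, the genes that fell and held them were Prodh2, Reg4, Gltpd2 and 1110017F19Rik, and the gene that rose was Cdhr2. Within 250 bases GTTAATNAT occurred in 7 genes that fell (2.23%), in 3 that rose (1.38%) and in 64 of all tested (0.516%). In that window both directions thus held a larger share than all tested genes. Within 120 bases TATAAA occurred in 7.01% of the genes that fell, in 9.68% of those that rose and in 3.14% of all tested. Both directions held a larger share of it than the tested genes at large. These matches describe letters, with no test, and do not show that a factor binds.

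Enzymes that act on drugs, toxins and oxidized lipids gave 8 genes that fell and 1 that rose among 53 tested, with 32 lower in both pairs, and DESeq2 with the block called 3 lower and 1 higher. Cyp1a1, the cytochrome P450 induced through the aryl hydrocarbon receptor, had 57.3 and 66.4 CPM in control against 38.5 and 22.3 in Kap1 KD, a change of -1.06 ± 0.08 (adjusted p = 1.69e-40). The groups did not overlap, but the pairs differed in size, at -0.57 and -1.57, and DESeq2 with the block did not call it. Its neighbour Cyp1a2 fell by 1.06 from 31 or 32 counts in control. The glutathione transferases Gsta3 and Gsta4 fell, at -1.78 and -1.26, as did Fmo2, a flavin monooxygenase, at -1.27. Gsta3 was scarce, with 22 and 30 counts in control against 5 and 8 in Kap1 KD, and reads shared between Gsta paralogs may have been split by the counting. Ugt2b35, a glucuronosyltransferase, rose by 0.63.

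Lipid synthesis shifted in the same direction. In cholesterol synthesis 23 of 29 genes (79.3%) were lower in both pairs and 1 was higher, with medians of -0.15 and -0.25. Cyp51, the lanosterol demethylase, fell from 220 and 209 CPM to 135 and 103, a change of -0.85 ± 0.07 (adjusted p = 5.1e-36). The phosphomevalonate kinase Pmvk fell by 0.60 and the sterol reductase Tm7sf2 by 0.65, and DESeq2 with the block called all 3. Sqle, the squalene epoxidase, was not called, at -0.24 ± 0.05. Among 34 genes of fatty acid and triglyceride synthesis 6 fell and 1 rose. Acss2, which makes acetyl-CoA from acetate, fell by 0.74 and the very long chain elongase Elovl2 by 0.97. The lipid droplet hydrolase Pnpla3 fell by 1.22 and the droplet protein Cidec by 1.34. Cidec had 12 and 31 counts in control against 0 and 16 in Kap1 KD, so its groups overlapped. DESeq2 with the block called 3 of the list lower and 0 higher, without Elovl2, Pnpla3 or Cidec. Fasn, which encodes the fatty acid synthase itself, was not called, and its pairs pointed apart, at -0.22 and 0.17. Among 36 genes of fatty acid oxidation and ketogenesis 5 fell and 0 rose. At an unadjusted p under 0.05 edgeR had 12 lower and 1 higher, and DESeq2 with the block called 1 lower and 0 higher. Bdh1, the dehydrogenase of ketone bodies, fell by 1.34, the peroxisomal enzyme Ehhadh by 0.70, and the acyl-CoA thioesterases Acot1 and Acot2 by 0.76 each. Amino acid catabolism gave 2 genes that fell among 29 tested, Prodh2 by 0.91 and the glutaminase Gls2 by 0.60.

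Of 28 transcription factors enriched in liver, 3 fell and 1 rose. Zbtb20, a zinc finger repressor that is abundant in hepatocytes, fell by 0.84 ± 0.08 (adjusted p = 3.49e-22), from 96.6 and 68.8 CPM to 55.3 and 37.5. The nuclear receptor Nr1h3 fell by 0.59, at low level, and was not called by DESeq2 with the block. Cebpd, a C/EBP factor of the acute phase, rose by 1.15 ± 0.14 (adjusted p = 7.89e-14). Its counts were 181 and 202 in control against 194 and 616 in Kap1 KD, so most of the increase lay in the second knock-down sample. Hnf4a, the central hepatocyte nuclear receptor, was not called. It had 6131 and 10054 counts in control against 3638 and 6953 in Kap1 KD, which gave -0.41 ± 0.07 (adjusted p = 2.66e-07), under the 1.5-fold threshold. Foxa2, at -0.06 ± 0.08, and Cebpa, at 0.11 ± 0.08, were not called either.

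The list of MAPK signalling, its receptors and its feedback inhibitors held 39 tested genes, of which 3 fell and 2 rose, and DESeq2 with the block called 2 in each direction. Fgfr4, the hepatocyte receptor for the FGF19 family, had 18.7 and 25.6 CPM in control against 9.11 and 10.6 in Kap1 KD, a change of -1.16 ± 0.10 (adjusted p = 3.54e-27). Fgfr2 fell by 0.75 and the EGF receptor ligand Btc by 0.72, while the phosphatases Dusp8 and Dusp5 rose by 0.99 and 0.72. Fgf1, which was among the largest decreases and not in the list, fell by 1.51 ± 0.17 (adjusted p = 2.46e-17), from 339 and 271 counts to 100 and 81. The groups of Fgf1 and Fgfr4 were far apart in both pairs. In the Wnt list 24 of 38 genes (63.2%) were lower in both pairs and 3 fell, namely Notum, a secreted Wnt deacylase, by 1.09, the pseudoreceptor Bambi by 0.90 and the receptor Fzd4 by 0.62, whereas Sp5, a direct Wnt target, rose by 0.68 and the ligand Wnt7b by 1.12. Sp5 rose mainly in the second pair (0.26 and 1.09), Wnt7b had 11 and 18 counts in control against 14 and 43 in Kap1 KD, and DESeq2 with the block called 0 of the list higher and 2 lower. Of 44 genes of TGF-beta and BMP signalling 5 fell and 3 rose, including the antagonist Chrd and the activin subunit Inhbb, which fell by 0.94 and 1.41. In the hypoxia list 4 of 35 genes fell and 0 rose. At an unadjusted p under 0.05 edgeR had 11 lower and 6 higher, and DESeq2 with the block called 3 lower and 0 higher. The 4 that fell were Stc1 (by 0.93), the angiogenic factor Vegfa (by 0.70), the mitophagy receptor Bnip3 (by 0.62) and Ankrd37 (by 0.66). Ankrd37 was not called by DESeq2 with the block. Bnip3 had 42.7 and 23.8 CPM in control against 31.8 and 13.3 in Kap1 KD, so its groups overlapped across replicates. The list as a whole had medians of -0.02 and -0.04, and 14 of its genes were lower in both pairs, 40.0% against 38.2% of all tested genes.

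**Figure D3:**
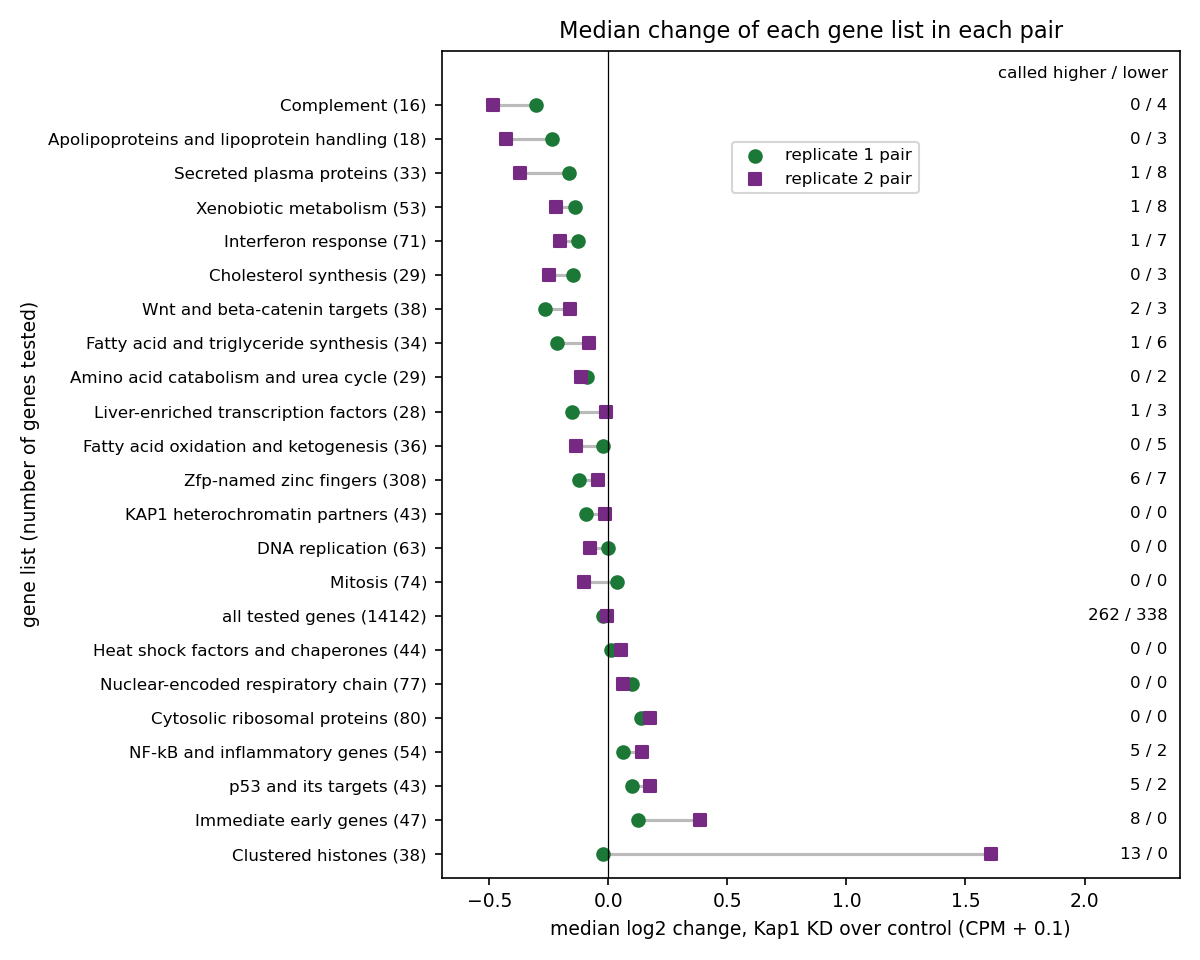
Median log2 change of 22 gene lists and of all tested genes in the replicate 1 pair (green circles) and the replicate 2 pair (purple squares), with the number of genes tested in parentheses and the numbers called higher and lower at the right. Among the lists drawn, complement has the lowest medians (-0.31 and -0.48), immediate early genes lie above all tested genes in both pairs (0.13 and 0.38), and the clustered histones separate the pairs (-0.02 and 1.61).

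Interferon-stimulated genes were mostly lower. Of 71 tested, 44 (62.0%) were lower in both pairs and 18 (25.4%) higher, with medians of -0.13 and -0.20, and 7 fell while 1 rose. The members that fell were the antiviral GTPases Mx2 (by 1.45) and Gbp7 (by 1.29), the helicase Dhx58 (by 0.90), Samd9l (by 0.65), Oasl2, Tgtp1 and Parp12. Mx1 was the one that rose, by 0.61, and it had 213 and 59 counts in control against 223 and 102 in Kap1 KD, so the groups overlapped across replicates. Mx2, Gbp7 and Dhx58 were scarce, Mx2 with 33 and 17 counts in control against 10 and 5 in Kap1 KD. Parp12 had more, with 1343 and 1427 counts in control against 773 and 785 in Kap1 KD. Tgtp1 had 350 and 364 against 217 and 183. DESeq2 with the block called Samd9l alone. Samd9l had 15.4 and 5.32 CPM in control against 9.72 and 3.42 in Kap1 KD. Its groups thus overlapped across replicates, as did those of Gbp7. In antigen presentation 2 genes fell and 2 rose among 31. H2-Q2, a class I gene with near copies that may share reads, fell by 1.04 ± 0.08 (adjusted p = 8.89e-37) from 3140 and 1909 counts to 1255 and 810, and the shared class I subunit B2m was not called, at 0.11 ± 0.05.

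Beyond Trim28, the largest decreases among genes with at least 1 CPM in a group came from several functions. Dapk2, a death-associated kinase, fell by 1.73 from 82 and 64 counts to 16 and 21. Zranb3, a helicase that remodels stalled replication forks, fell by 1.58 ± 0.13 (adjusted p = 7.84e-33), from 908 and 546 counts to 306 and 119. Hr, a corepressor of nuclear receptors, had almost equal replicates, with 4.63 and 4.37 CPM in control against 1.60 and 1.65 in Kap1 KD, and fell by 1.47 ± 0.18. The brush border enzyme Mgam fell by 1.32, the actin bundler Lcp1 by 1.31 and the hydrolase-like gene Mblac2 by 1.30. Among genes with very high expression, Scaf11, a splicing-associated protein, fell by 0.59 from 28685 and 18443 counts to 14868 and 11280.

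Immediate early genes are induced within a short time of growth factor or stress signals. Of 47 immediate early genes 8 rose and 0 fell. At an unadjusted p under 0.05 edgeR had 26 higher and 5 lower, and DESeq2 with the block called 7 higher and 0 lower. In all, 30 (63.8%) were higher in both pairs against 6 lower, with medians of 0.13 and 0.38. Btg2, an antiproliferative gene that p53 also activates, had 35.6 and 48.6 CPM in control against 66.8 and 96.3 in Kap1 KD, a change of 0.95 ± 0.08 (adjusted p = 4.49e-28). Its groups did not overlap and the pairs were nearly equal, at 0.91 and 0.99. The stress sensor Gadd45g rose by 0.81, the ERK phosphatase Dusp5 by 0.72, the stress-induced factor Atf3 by 0.71, the mRNA-destabilizing protein Zfp36 by 0.64, Ier3 by 0.61 and Egr1 by 0.59. The first-wave genes Fos, Jun and Myc were not called, at 0.27 ± 0.18, 0.15 ± 0.09 and 0.20 ± 0.06, and Fosb rose by 0.70.

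Of 43 genes of the p53 pathway 5 rose and 2 fell, and 26 (60.5%) were higher in both pairs. Cdkn1a, the p21 inhibitor of cyclin-dependent kinases, had 161 and 240 CPM in control against 230 and 394 in Kap1 KD, so the lower knock-down sample lay just under the higher control. It rose by 0.51 and 0.72 in the pairs and by 0.61 ± 0.06 in the fit (adjusted p = 1.48e-23). The death receptor Fas rose by 0.75, the reductase Dcxr by 0.73 and the BH3-only gene Bbc3 (PUMA) by 0.61, with Btg2 as the other member. Ddb2, a damage recognition gene, and the phosphatase Ptpn14 fell, by 0.64 and 1.05, and DESeq2 with the block called 5 of the list higher and 0 lower. Mdm2 was not called, at 0.01 ± 0.07, and Trp53 itself had 0.22 ± 0.05, also under the threshold.

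Cytokines and NF-kB-associated genes gave 5 that rose and 2 that fell among 54, and DESeq2 with the block called 5 and 1. Ccl20, the ligand of CCR6, had 2.93 and 4.53 CPM in control against 6.74 and 12.9 in Kap1 KD, and rose by 1.37 ± 0.14 (adjusted p = 9.9e-21). The colony-stimulating factors Csf2 and Csf1 rose by 1.21 and 0.60, the IL-6 family cytokine Lif by 0.71 and the adaptor Traf1 by 0.90. Csf1 was the most abundant, with 4560 and 7342 counts in control against 5050 and 10902 in Kap1 KD. The LIF receptor gene Lifr and the IL-1 antagonist Il1rn were the 2 that fell, by 0.62 and 0.69. Nfkbia, the feedback inhibitor of the pathway, was not called, at 0.00 ± 0.07.

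The most abundant transcript that rose was Sprr1a, which encodes a small proline-rich protein of the cornified envelope and lies on chromosome 3 (mm9, 92287877 to 92289816, minus strand). It had 66186 and 66908 counts in control against 91449 and 153175 in Kap1 KD, or 1187.99 and 1348.08 against 2146.03 and 3273.13 CPM. The control samples were close together, both knock-down samples lay above them, and the fitted change was 1.07 ± 0.06 (adjusted p = 1.15e-67). Its neighbour Sprr1b rose by 1.22. The calcium-activated chloride channel regulators Clca1, Clca2 and Clca4, which adjoin each other on chromosome 3 (144392641 to 144512321), rose by 1.10, 1.40 and 1.18. These were the 3 genes tested in that interval, and paralogs there may share reads. Clca4 had 52.8 and 73.4 CPM in control against 112 and 178 in Kap1 KD. Cdhr2, a cadherin of the brush border, rose by 2.33 ± 0.09 (adjusted p = 1.41e-130), with 4.76 and 11.8 CPM in control against 21.0 and 65.7 in Kap1 KD. It was the member of the epithelial list that rose, while 5 of 46 fell, namely Cldn1, Cldn2, Ehf, Tspan8 and Epcam, by 0.90, 0.87, 0.67, 0.64 and 0.63. Of 16 tested keratin genes 0 rose and 2 fell, Krt33b by 0.71 and Krt76 by 0.77. At an unadjusted edgeR p under 0.05 3 keratin genes were higher and 4 lower, and DESeq2 with the block called 0 in either direction.

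The Sprr1a promoter is shown because it holds 2 of the motifs searched within 120 bases of the start. The first capitals mark TGANTCA, the AP-1 motif, and the second mark TATAAA (mm9, chr3:92289817-92289936, minus strand).
Sprr1a: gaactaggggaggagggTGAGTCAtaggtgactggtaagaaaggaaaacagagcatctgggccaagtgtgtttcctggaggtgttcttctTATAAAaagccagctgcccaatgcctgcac

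TGANTCA, searched on both strands, occurred in 8 of the 217 protein-coding genes that rose (3.69%), in 2.87% of those that fell and in 2.13% of all tested. Among the genes that rose it was present upstream of Sprr1a, Sprr1b, Serpinb2 and Clca2, and among those that fell upstream of Gsta4 and Mmp13. These shares, within 120 bases, were close to each other, and no test was made. Within 250 bases they were 7.37% of the genes that rose, 7.01% of those that fell and 4.63% of all tested.

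Proteases and matrix genes moved in both directions, with 7 that rose and 5 that fell among 66 genes of the extracellular matrix. Mmp9, the gelatinase B, rose by 1.95 ± 0.17 (adjusted p = 3.39e-27), from 71 and 95 counts to 151 and 443. The lower knock-down sample was above both controls, and the second was higher again. The anchoring collagen Col7a1 rose by 0.87, the proteoglycan Bgn by 0.92 and the protease inhibitor Timp1 by 0.59. Fbn2, Col12a1 and Loxl2, which build fibrils and cross-link them, fell by 1.16, 0.74 and 0.72. Serpinb2, a serine protease inhibitor, rose by 1.12, and the membrane protease Adam8 rose by 1.01.

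A few genes were almost silent in control and present in both knock-down samples. Atp2b2, a plasma membrane calcium pump of neurons, had 2 and 1 counts in control against 30 and 89 in Kap1 KD, a ratio of 46.7 after depth scaling with a 95% counting interval of 15.6 to 229.8. 9130204K15Rik had 3 and 1 counts in control against 50 and 53, a ratio of 30.3 (11.5 to 113). Gm13346 went from 3 and 4 counts to 21 and 45, a ratio of 11.1 (5.10 to 28.7). These intervals include only the error of counting, and copies made by PCR were not removed by molecular identifiers. The genes were picked for being called with few control counts, which can overstate the ratios. Gap43, a growth cone protein, rose by 2.36 from 13 and 18 counts to 40 and 103. Neuronal and synaptic genes as a list had 4 that rose and 2 that fell among 37, and their medians were -0.08 and 0.07, so the list did not move together. Cntnap4, an axonal neurexin relative, fell by 2.59 from 17 and 19 counts to 1 and 4. DESeq2 with the block did not call any gene named in this paragraph, but scarce genes may have had no adjusted p from it. Without the block it did call Atp2b2 and 9130204K15Rik.

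Some of the largest fitted increases came from the second knock-down sample alone. The small nuclear RNA locus 7SK had 6 and 13 counts in control against 7 and 443 in Kap1 KD. AY036118, on chromosome 17, had 1025 and 1039 counts in control against 795 and 13920 in Kap1 KD. These genes met the rule because the first pair was barely above 0, at 0.35 and 0.02, and DESeq2 with the block called neither. Lars2, which encodes the mitochondrial leucyl-tRNA synthetase, had 14625, 14175, 10162 and 323041 counts in the same order, and was not called because its first pair was lower, at -0.14. Clustered histone genes, whose messages mostly lack a poly(A) tail, showed the same split. Of 38 tested, 13 rose and 0 fell (32 and 0 at an unadjusted edgeR p under 0.05), with medians of -0.02 and 1.61, and their summed level was 50.9 and 56.6 CPM in control against 53.2 and 113 in Kap1 KD. Of the 13, 3 were at least 1.5-fold higher in each pair. DESeq2 with the block called 0 of the histone genes higher and 0 lower. The summed level of 7SK loci was 2.39, 1.91, 2.42 and 43.0 CPM in that order, and its part in the other increases of the second pair was not tested. Without histone and short RNA genes the counts were 243 higher and 336 lower, and in the replicate 1 pair alone 332 tested genes were at least 1.5-fold higher and 535 lower.

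Genes that work with KAP1 were listed as heterochromatin partners, TIF1 relatives and zinc finger proteins. Among 43 partners in heterochromatin formation 0 were called by edgeR and 0 by DESeq2 with the block, and 3 were higher and 11 lower at an unadjusted edgeR p under 0.05. The methyltransferase Setdb1 had -0.06 ± 0.08, the HP1 alpha gene Cbx5 -0.12 ± 0.05 and the NuRD helicase Chd4 0.00 ± 0.06. The TIF1 relatives Trim24 and Trim33 were not called, at -0.05 ± 0.08 and -0.10 ± 0.08. Of 491 tested proteins with 3 or more C2H2 zinc fingers, the family to which KRAB repressors belong, 9 rose and 17 fell, and 235 (47.9%) were lower in both pairs against 105 (21.4%) higher. The share that rose, 1.83%, was close to the background of 1.85%, and the share that fell was 3.46% against 2.39%. DESeq2 with the block called 5 higher and 5 lower. Germline genes that are silent in somatic cells had 9 tested members, with 0 calls by edgeR and by DESeq2 with the block and 2 lower at an unadjusted edgeR p under 0.05.

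Core cellular functions moved little. Cytosolic ribosomal protein genes were higher in both pairs for 66 of 80 (82.5%), yet 0 were called by edgeR or by DESeq2 with the block, and their medians were 0.14 and 0.18. At an unadjusted edgeR p under 0.05 58 were higher and 1 lower. With scaling by library totals 63 of the 80 were still higher in both pairs. Rps2 was among the most abundant, with 2712.28 and 3451.43 CPM in control against 3284.27 and 5225.6 in Kap1 KD, and had a change of 0.44 ± 0.06. Nuclear-encoded subunits of the respiratory chain had 0 calls among 77 by edgeR and by DESeq2 with the block (23 higher and 4 lower at an unadjusted edgeR p under 0.05). Of these 51 (66.2%) were higher in both pairs, and 35 when scaled by library totals. DNA replication (63 genes), mitosis (74), heat shock proteins and chaperones (44), the unfolded protein response (36) and factors of transcriptional pausing (35) also had 0 calls by edgeR and by DESeq2 with the block. At an unadjusted edgeR p under 0.05 the genes higher and lower numbered 3 and 16, 10 and 16, 11 and 7, 5 and 6, and 3 and 5 in that order, and medians lay between -0.10 and 0.05. Hsp90ab1 and Hspa8, the most abundant chaperones, had changes of 0.10 ± 0.06 and 0.07 ± 0.06.

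The called genes shared features of length and promoter that the call did not use. Genes that rose had a median exonic length of 2187 bases and those that fell 3705, against 3293 for all tested genes. With genes in 4 equal bins, 3.14% of the shortest rose and 1.67% fell, whereas in the bin of the longest 0.935% rose and 2.92% fell. The median of all genes in these bins shifted from 0.04 and 0.07 in the pairs to -0.09 and -0.06, so the relation with length was not limited to called genes, and its part in the calls was not tested. Promoters of called genes were poor in CpG. The observed over expected ratio had a median of 0.46 among genes that rose and 0.492 among those that fell, against 0.711 for all tested genes, and in the bin with the lowest ratio 3.6% rose and 4.34% fell. Called genes were also less expressed, with medians of 2.56 and 2.79 CPM against 20.004 for all tested genes. Level is not independent of the call, which depends on counts. How far the shares by length and CpG ratio follow level was not tested.

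**Figure D4:**
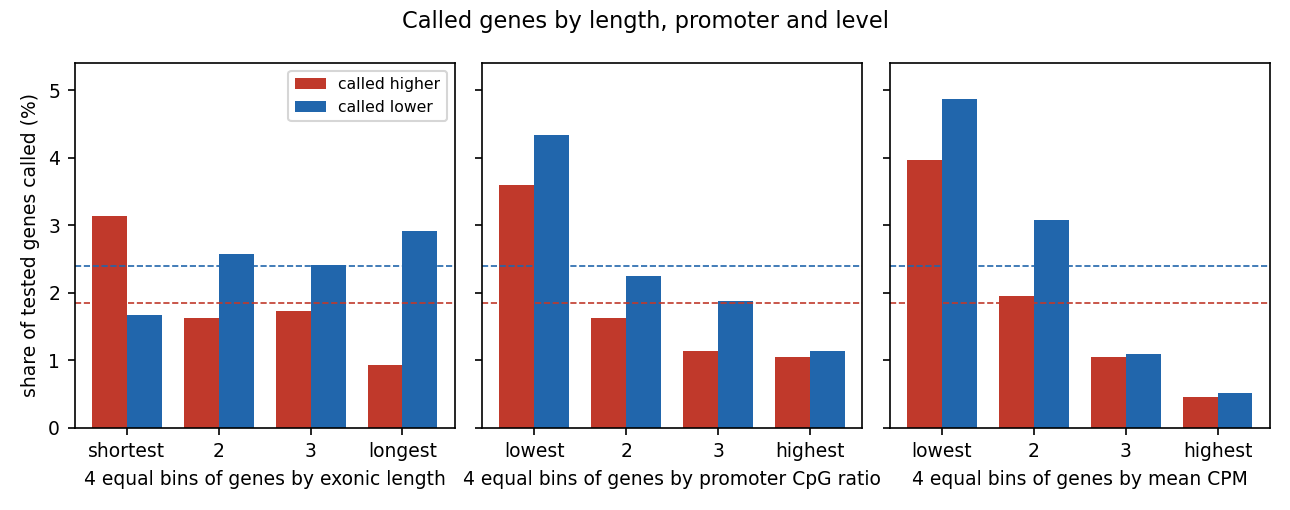
Share of tested genes called higher (red) and lower (blue) in 4 equal bins by exonic length, promoter CpG ratio and mean CPM, with dashed lines at the shares over all tested genes (1.85% and 2.39%). The red and blue bars cross with length, from 3.14% and 1.67% in the shortest bin to 0.935% and 2.92% in the longest, and both fall together with CpG ratio and with level.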

How the data were processed

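PolyA-selected, stranded mRNA libraries were aligned by the authors to mm9 with TopHat2 2.0.11, keeping 1 alignment per read, and the authors deposited raw counts per Ensembl gene made with HTSeq 0.6.1. The strand setting of the counting is not given in the sources used here, so overlapping antisense genes may not be told apart, and paralogs may share reads. The small RNA tables were not used here. Symbols and coordinates came from an annotation of the same build, which matched 21806 of 21915 identifiers. Lists and members were chosen with earlier results of these data known.

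The quasi-likelihood F test of edgeR 4.0.16 in R 4.3.3 was run after filterByExpr and TMM scaling, with Benjamini-Hochberg adjustment and the replicate number as a block, which left 1 residual degree of freedom. The estimated prior degrees of freedom were infinite. Each edgeR p-value thus used a spread shared by genes of similar level, not the gene's own replicate spread. Standard errors were taken from the fold change and F. The pairing was checked from deviations around the group means, where samples of the same number correlated at 0.813. Pair changes are log2(CPM + 0.1), which understates changes of low genes. DESeq2 1.42.0 and limma-voom (limma 3.58.1) were alternatives. Only the edgeR fits with and without the block were tested on simulated data.

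Named genes were Trim28, the 12 largest changes per direction with at least 1 CPM in a group, the 6 most abundant called genes per direction, and up to 4 called members per list and direction, or up to 2 abundant members of lists with no call. Other genes in the text were added after their values were seen. Some genes selected by this rule are not reported here.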

Additional observations from a re-analysis of the deposited data

How the results depend on the processing

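Trim28 was lower in each alternative that was run, at -2.71 to -2.28 (log2) when 1 sample was left out, but its call was lost without the replicate block (-2.48, adjusted p = 1.0 by edgeR), where DESeq2 still called it (adjusted p = 3.08e-11). The counts of called genes depended on the fit. Genes called higher and lower numbered 0 and 0 with no replicate block, 110 and 124 by DESeq2 with the block (106 and 124 of them shared with the reported calls), and 2 and 1 by DESeq2 without it. They numbered 1381 and 1621 with no fold threshold, 110 and 94 at 2-fold, 144 and 184 when each pair had to pass 1.5-fold, and 193 and 224 when both Kap1 KD samples had to lie beyond both controls. Leaving out 1 sample in turn left 2 to 45 genes called higher and 1 to 20 lower, with a single sample in 1 group that is assumed to vary like the other. The fewest were left without Kap1 KD replicate 2 (2 and 1). Voom, other scalings and other filters kept both counts within 1.5 times. In 2 alternatives added after seeing the data, the replicate 1 pair alone gave 332 and 535 genes past 1.5-fold with no test, and leaving out histone and short RNA genes gave 243 and 336. Of 175 named genes that were called, 139 stayed called with voom and 71 with DESeq2 and the block, which gave 65 of them no adjusted p.

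With 1 sample left out, 13 named genes changed direction in at least 1 fit. Their lowest and highest values (log2) were -7.48 and 1.37 for Col9a1, -2.71 and 0.17 for Zfp950, -2.28 and 0.0326 for Tgfbi, -2.11 and 0.13 for Slc7a2, -1.60 and 0.0113 for Serpinf2, -1.60 and 0.30 for Samd9l, -1.28 and 0.13 for Il1rn, -1.22 and 0.30 for Nr1h3, -0.20 and 1.64 for Mx1, -0.15 and 5.68 for 7SK, -0.0793 and 3.63 for Cyp21a1, -0.0676 and 3.92 for AY036118, and -0.0179 and 1.05 for Acacb. These fits had no replicate block, so leaving out a sample and dropping the pairing cannot be told apart here. The cause was not tested. Few counts limit the precision for 125 genes that rose and 151 that fell, which had a mean of under 100 counts.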

Other observations

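Several called genes lay beside others of the same direction. Within 200 kb of another called gene of the same direction were 74 of the 262 genes that rose (28.2%), in 30 clusters, and 57 of the 338 that fell (16.9%), in 28 clusters. No comparison with other genes was made, and overlapping or duplicated genes contribute, so these are descriptions of loci. The largest group was 8 of 18 tested genes on chromosome 13 between 23635921 and 23854255 (mm9), all clustered histones, whose increase lay mainly in the second Kap1 KD sample. On chromosome 4 between 88405933 and 88440295, 5 of 8 tested predicted genes rose, among them Gm13284, from 10 and 13 counts in control to 47 and 37 in Kap1 KD. On chromosome 15 between 74875447 and 74989169 the cell surface antigen genes Ly6c1, Ly6c2 and Ly6g, the 3 genes tested there, rose by 0.63, 0.70 and 0.77, and Ly6d, in a separate group nearby, went from 4 and 11 counts to 46 and 26. The vomeronasal receptor genes Vmn2r78 and Vmn2r79 on chromosome 7, a family of odorant sensors, had 18 and 11 and 5 and 12 counts in control and 40 and 23 and 20 and 43 in Kap1 KD. The deubiquitinase genes Dub2a and Usp17l5, also on chromosome 7, rose by 1.61 and 0.78. All of these belong to families with near-identical copies, so reads may have been assigned to either copy.

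Mycl1, a member of the MYC family, rose by 1.15 ± 0.10 (edgeR adjusted p = 1.05e-28), with 396 and 752 counts in control against 654 and 1605 in Kap1 KD. The next called gene, Oxct2b, rose by 0.81. Among genes that fell, Cyp1a1 lay beside Cyp1a2, Acot1 beside Acot2, F11 beside Cyp4v3 and Nr1h3 near Ddb2.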
